A study of Homo sapiens with 2 samples.

Results

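The genes described here are the translation initiation factors and the 4E-binding proteins, taken as the protein-coding genes whose symbol starts with EIF and a digit, without the 4 eIF2 kinases and without hyphenated symbols. This rule found 52 of the 58884 genes in the deposited table. EIF1AY, which is Y-linked, was counted and set aside without a level. Of the other 51, 47 had a mean of at least 1 TPM over both libraries, a length-corrected share of a library's transcripts, and these 47 are compared. Initiation factors load the initiator tRNA onto the small ribosomal subunit, bring that subunit to the cap of an mRNA and set it at the start codon. The 4E-binding proteins hold the cap-binding protein eIF4E away from its scaffold eIF4G, and the kinase complex mTORC1 releases that hold by phosphorylating them.

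TPC-1 cells, a human line from a papillary thyroid carcinoma, were transfected with an siRNA against XPR1, the phosphate exporter, or with a control siRNA. There is 1 library for each siRNA, so no difference has a replicate check and no p-value is given, and "higher" and "lower" describe these libraries only. A gene is called higher or lower where it differs by at least 1.5-fold on the log2(TPM + 1) scale, on which the change of a low gene comes out smaller than it is. Folds and ratios in the text are of TPM itself. Their 95% Clopper-Pearson intervals use reads recovered from TPM and gene length. They cover counting error only, since there is 1 library for each siRNA. Each read is counted as a separate molecule, because PCR copies cannot be told apart here, so the intervals may be too narrow.

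The recovered reads came to 15153206 for XPR1 siRNA and 15777865 for control siRNA. XPR1 itself was 5.31 TPM after XPR1 siRNA and 39.2 TPM in control, 13.5% of the control level. Of 6 thyroid follicular markers, PAX8 and FOXE1 had a mean of at least 1 TPM, and NKX2-1 and TSHR were listed at 0 in both libraries. PAX8 was 408.6 TPM after XPR1 siRNA and 588.1 TPM in control, 1.44-fold lower (1.41 to 1.47), which is within the 1.5-fold threshold. Of 9 markers of leukocytes, endothelium and fibroblasts, 2 did, and CD3E and DCN were listed at 0 in both. COL1A1 was 6.67 TPM after XPR1 siRNA and 1.04 TPM in control, and PECAM1 was 0.859 TPM after XPR1 siRNA and 1.47 TPM in control, and the part of these markers' differences in the results was not tested. In bulk RNA, fewer cells of a type and less RNA per cell cannot be told apart.

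Most initiation factor transcripts were close to control after XPR1 siRNA, and a small set was lower. Of 47 genes, 10 were at least 1.5-fold lower and 1 was higher, while 36 lay within 1.5-fold. Among 11698 protein-coding genes over the same floor, 7980 lay within 1.5-fold, 11.1% were lower and 20.7% higher. Among all 16319 genes, 10062 lay within it, 16.6% were lower and 21.7% higher. The share of lower genes was thus 21.3% among initiation factors and the share of higher genes 2.13%. The median log2 difference was -0.05 for initiation factors, 0.10 for protein-coding genes and 0.05 for all genes. At 2-fold, 3 initiation factors were lower (EIF4EBP1, EIF5 and EIF1) and none higher, where 4.57% of protein-coding genes were lower and 8.75% higher. No gene lay just inside the threshold on the lower side. The lower gene nearest to it, EIF5A2, differed by -0.64 on the log2(TPM + 1) scale, and the next gene, EIF2B2, by -0.34.

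**Figure D1:**
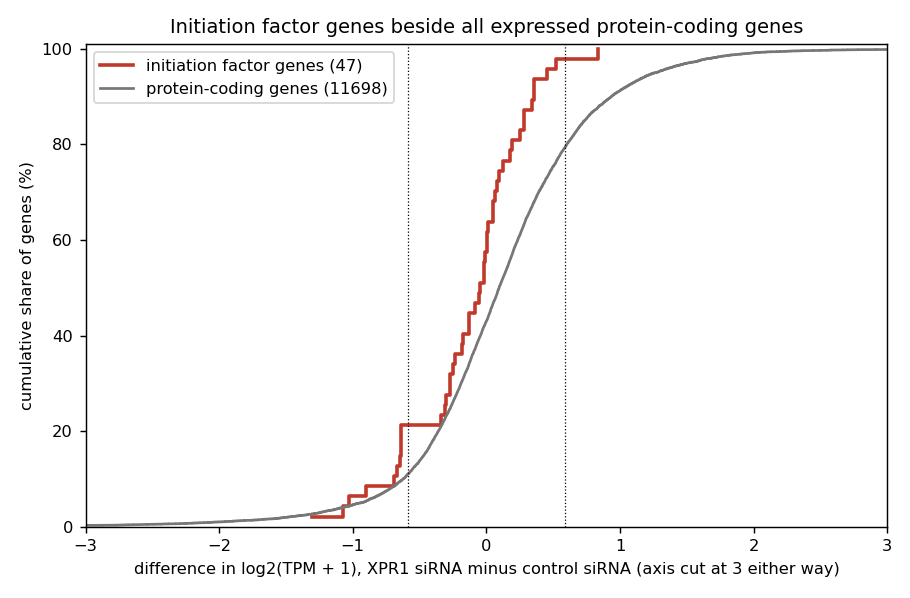
Cumulative share of genes (%) against the difference in log2(TPM + 1), XPR1 siRNA minus control siRNA, for 47 initiation factor genes (red) and 11698 protein-coding genes (grey), each with a mean of at least 1 TPM; dotted lines mark 1.5-fold. The red line jumps to 21.3% at -0.64, left of the lower dotted line, and 1 gene lies beyond the upper one.

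The genes summed to 6907 TPM after XPR1 siRNA and 8066 TPM in control. Levels ranged in the XPR1-siRNA library between 3.52 TPM for EIF4A1 and 539.2 TPM for EIF4B. In the control library they ranged between 2.785 TPM for EIF4E3 and 863.1 TPM for EIF1. EIF1 had the highest listed level in control, and after XPR1 siRNA EIF4B, EIF4G2, EIF2S3 and EIF4G1 were above it. Of the 47 genes, 35 had a counting interval of the ratio that left out 1, and all 11 called genes were among them. With many reads such an interval leaves out 1 for small differences too, as for EIF4G2 (ratio 0.963, 0.943 to 0.983). The same share over all genes was not counted, so the 35 are no result about these genes as a set.

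**Figure D2:**
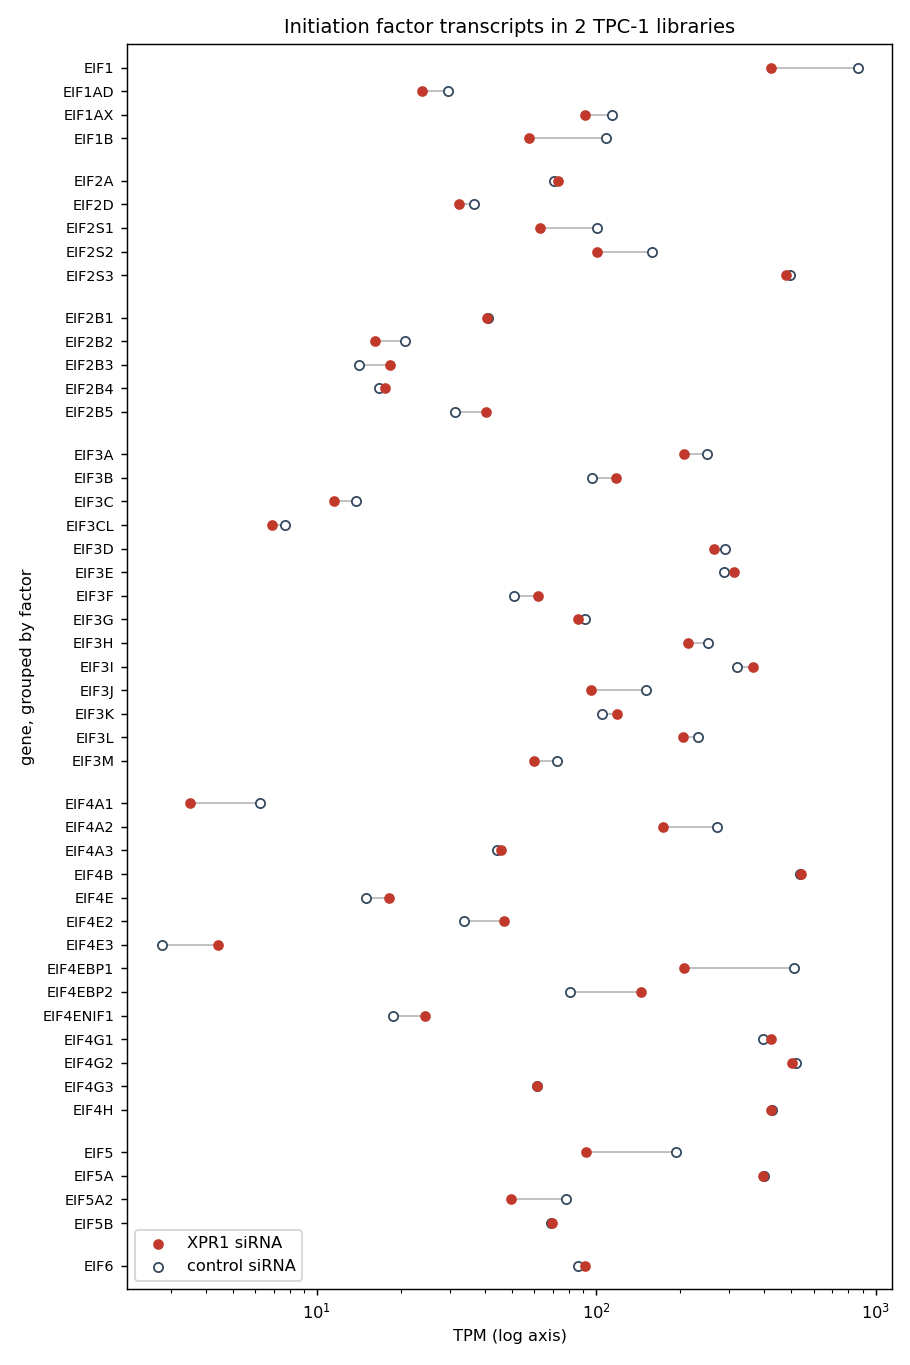
TPM (log axis) of the 47 genes, grouped by factor, with red points for XPR1 siRNA and open points for control siRNA. The longest gaps belong to EIF4EBP1, EIF5 and EIF1, where the red point is to the left, while EIF4EBP2 has its red point to the right, at 144.4 against 80.5 TPM.

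EIF1, EIF1B and EIF5, which act in start codon selection, were lower after XPR1 siRNA. eIF1 keeps the scanning subunit from stopping at poor start codons, and eIF5 activates the GTPase of eIF2 and lowers that stringency, so the pair is known to act in opposite ways. EIF1 (chromosome 17, 41688885 to 41692668, plus strand, GRCh38) was 422.4 TPM after XPR1 siRNA and 863.1 TPM in control, 2.04-fold lower (interval 1.98 to 2.11). EIF5 (chromosome 14, 103333544 to 103345025, plus strand) was 91.7 TPM after XPR1 siRNA and 193.8 TPM in control, 2.11-fold lower (2.027 to 2.205). Since the pair was lower by nearly the same factor, the ratio of EIF1 to EIF5 was 4.61 after XPR1 siRNA and 4.45 in control. Of protein-coding genes over the floor, 4.37% had a lower difference than EIF1 and 4.04% a lower one than EIF5.

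EIF1B, a close paralog of EIF1, was 57.5 TPM after XPR1 siRNA and 108.4 TPM in control, 1.89-fold lower (1.68 to 2.12). It made up 11.98% of the summed TPM of the pair after XPR1 siRNA and 11.2% in control, so the balance of the paralogs was nearly the same while both were lower. EIF1AX, whose product works beside eIF1 in scanning, was 91.6 TPM after XPR1 siRNA and 113.7 TPM in control (ratio 0.806, 0.755 to 0.860). EIF1AD, which has an eIF1A-like domain, was 23.8 TPM after XPR1 siRNA and 29.6 TPM in control. Of the 4 genes in the EIF1 group, 2 were lower and 2 were within 1.5-fold, and their median log2 difference was -0.61.

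The start codon context of an mRNA is the sequence that eIF1 helps to read, and a purine at -3 and a G at +4 are its known strong points. The contexts of the genes of this step are shown because they differ between these mRNAs. The first 9 bases are the end of the 5′ leader, the capitals mark the start codon and the last base is +4 (GENCODE 29 transcripts, GRCh38).
EIF1: tcgtatcgtATGt
EIF1B: tagtatcgcATGt
EIF1AX: gccaccgccATGc
EIF5: taagccaaaATGt
EIF1 and EIF1B had neither of these bases, which held for 3 of 35 initiation factor genes over the floor with a context and for 6.18% of 13504 protein-coding genes. EIF3B was the other. Its transcript was 117.7 TPM after XPR1 siRNA and 96.7 TPM in control. EIF1AX and EIF5 have the purine.

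The 250 bases before the RefSeq start (GRCh38.p14) are shown for EIF1, the lower gene with the highest listed level, and for EIF4EBP2, the only higher gene. Capitals mark matches to any of 5 motifs searched on both strands.
EIF1, chr17:41688635-41688884, plus strand: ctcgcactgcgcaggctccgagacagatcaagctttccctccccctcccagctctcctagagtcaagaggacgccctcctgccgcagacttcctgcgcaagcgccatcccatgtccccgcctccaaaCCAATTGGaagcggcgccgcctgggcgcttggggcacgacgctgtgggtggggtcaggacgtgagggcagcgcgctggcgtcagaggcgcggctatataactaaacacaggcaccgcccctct
EIF4EBP2, chr10:70403895-70404144, plus strand: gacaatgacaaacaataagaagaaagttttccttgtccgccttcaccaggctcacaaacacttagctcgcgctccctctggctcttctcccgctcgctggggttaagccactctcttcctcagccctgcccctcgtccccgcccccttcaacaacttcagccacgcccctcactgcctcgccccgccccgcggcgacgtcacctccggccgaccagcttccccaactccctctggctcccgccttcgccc
EIF1 has the CCAAT box on opposite strands in an overlapping pair that starts at -123, and EIF4EBP2 has no match. EIF5 has 2 CCAAT matches, the first at -109, in a window that holds 235 bases of annotated exons and is not printed. The windows of EIF2S1 (250 bases) and EIF5A2 (56 bases) also hold annotated exons. Windows of other genes, apart from the printed ones, were not checked for exons, so the counts below can include exon sequence. CCAAT was in 4 of 8 promoters of lower genes, in 11 of 30 within 1.5-fold and in 35.3% of 9579 protein-coding promoters. The E-box CACGTG, a site bound by MYC and related factors, was in 10 of 39 promoters of initiation factor genes (25.6%) and in 9.02% of the protein-coding ones. It was in 2 of 8 promoters of lower genes (EIF1B and EIF5A2) and in 8 of 30 within 1.5-fold. None of the 39 held TGATGNAA, the core of elements bound by ATF4 with C/EBP, which 1.39% of protein-coding promoters held. None held TGACGTCA either, which 2.98% held. At shares this low, 39 promoters are too few to tell an absence from the background. The ETS core CCGGAAG was in 7 of the 39 and in 16.4% of protein-coding promoters. A match describes letters and is no binding site. Promoters of 44 of the 52 genes were matched, and the end of the promoter entry was found in the gene's transcripts for 36. EIF2S2, EIF3A, EIF3CL, EIF3E, EIF3G, EIF3H, EIF3L and EIF4EBP1 had no entry.

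Of the 3 subunits of eIF2, which carries the initiator tRNA, 2 were lower after XPR1 siRNA and the third was within 1.5-fold of control. The alpha subunit EIF2S1, whose phosphorylation by stress kinases slows initiation, was 62.7 TPM after XPR1 siRNA and 100.4 TPM in control, 1.60-fold lower (1.5 to 1.71). The beta subunit EIF2S2 was 100.9 TPM after XPR1 siRNA and 157.9 TPM in control, 1.565-fold lower (1.45 to 1.69). The gamma subunit EIF2S3, which binds GTP and the tRNA, was 478.5 TPM after XPR1 siRNA and 495.8 TPM in control (ratio 0.965, 0.934 to 0.998). The alpha and beta transcripts thus kept their ratio (0.621 after XPR1 siRNA, 0.636 in control), while alpha over gamma was 0.131 after XPR1 siRNA and 0.2025 in control. EIF2A and EIF2D, which can deliver tRNA without eIF2, were within 1.5-fold. EIF2A was 72.9 TPM after XPR1 siRNA and 70.4 TPM in control, and EIF2D 32.15 TPM after XPR1 siRNA and 36.7 TPM in control.

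All 5 subunits of eIF2B, the exchange factor that recharges eIF2 with GTP, were within 1.5-fold. Their log2 differences ran between -0.34 for EIF2B2 and 0.36 for EIF2B5, the catalytic subunit, with a median of 0.07. EIF2B5 was 40.4 TPM after XPR1 siRNA and 31.3 TPM in control (ratio 1.29, 1.18 to 1.41). EIF2B3 was 18.3 TPM after XPR1 siRNA and 14.2 TPM in control (1.29, 1.07 to 1.56). EIF2B2 was 16.1 TPM after XPR1 siRNA and 20.7 TPM in control (0.779, 0.678 to 0.896). These 3 intervals leave out 1, in both directions, and those of the other 2 subunits include it. EIF2B1, the regulatory alpha subunit, was 40.6 TPM after XPR1 siRNA and 40.8 TPM in control (0.9945, 0.8875 to 1.11). EIF2B4 was 17.5 TPM after XPR1 siRNA and 16.7 TPM in control (1.05, 0.9085 to 1.215). The summed transcripts of eIF2 were 4.83 times those of eIF2B after XPR1 siRNA and 6.095 times in control.

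The eIF3 complex, which bridges the small subunit and eIF4G, had 1 lower gene of 14 after XPR1 siRNA, EIF3J, and none higher. EIF3J, a loosely bound subunit at the mRNA entry channel, was 96.2 TPM after XPR1 siRNA and 150.9 TPM in control, 1.57-fold lower (1.46 to 1.68). The other 13 lay between -0.28 and 0.28 on the log2(TPM + 1) scale. They summed to 2025 TPM after XPR1 siRNA and 2063 TPM in control.

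Among those 13, small differences went both ways with intervals that left out 1. EIF3A, the scaffold of the complex, was 206.2 TPM after XPR1 siRNA and 249.9 TPM in control (ratio 0.825, 0.798 to 0.854). EIF3M was 59.8 TPM after XPR1 siRNA and 72.3 TPM in control (0.826, 0.777 to 0.880), and EIF3H 212.4 TPM after XPR1 siRNA and 250.7 TPM in control (0.847, 0.8175 to 0.878). EIF3L was 204.4 TPM after XPR1 siRNA and 231.0 TPM in control (0.885, 0.846 to 0.926), and EIF3D, which can bind the cap itself, 263.9 TPM after XPR1 siRNA and 289.2 TPM in control (0.9125, 0.876 to 0.9505). These 5 were a little below control. A little above it were EIF3B, EIF3F, EIF3I, EIF3K and EIF3E. EIF3B was 117.7 TPM after XPR1 siRNA and 96.7 TPM in control (1.22, 1.16 to 1.27), and EIF3F 61.7 TPM after XPR1 siRNA and 50.6 TPM in control (1.22, 1.15 to 1.295). EIF3I was listed highest, at 364.5 TPM after XPR1 siRNA and 318.7 TPM in control (1.14, 1.08 to 1.21). EIF3K was 118.7 TPM after XPR1 siRNA and 104.9 TPM in control (1.13, 1.05 to 1.22). EIF3E was 311.6 TPM after XPR1 siRNA and 285.9 TPM in control (1.09, 1.055 to 1.13). EIF3G was 85.98 TPM after XPR1 siRNA and 91.1 TPM in control, with an interval of 0.873 to 1.02. EIF3C was listed at only 11.5 TPM after XPR1 siRNA and 13.85 TPM in control (0.8305, 0.716 to 0.963), and its near-identical copy EIF3CL at 6.93 TPM after XPR1 siRNA and 7.67 TPM in control. Reads of that pair can be split or dropped, so their levels are uncertain. For EIF3L, 51.8% of its exon bases lie in exons of other genes on either strand, and the library kit does not mark strand.

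The eIF4 group held the largest opposite differences, in the 4E-binding proteins. EIF4EBP1 (chromosome 8, 38030341 to 38060365, plus strand) was 206.6 TPM after XPR1 siRNA and 512.4 TPM in control, 2.48-fold lower (2.295 to 2.68), the lowest of the 47 genes. EIF4EBP2 (chromosome 10, 70404379 to 70428618, plus strand) was 144.4 TPM after XPR1 siRNA and 80.5 TPM in control, 1.795-fold higher (1.71 to 1.89), the highest of them. Of protein-coding genes over the floor, 2.65% had a lower difference than EIF4EBP1, and 87.7% had a lower one than EIF4EBP2. EIF4EBP3 was listed at 0 TPM after XPR1 siRNA and 0.684 TPM in control (2 reads). Of its exon bases, 73.4% are shared with the readthrough gene ANKHD1-EIF4EBP3, so its level is uncertain.

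The makeup of the 4E-binding protein transcripts therefore differed. EIF4EBP1 made up 58.85% of their summed TPM after XPR1 siRNA and 86.3% in control, and EIF4EBP2 41.15% after XPR1 siRNA and 13.6% in control. As shares of recovered reads, not corrected for length, EIF4EBP1 was 17.5% after XPR1 siRNA (16.4% to 18.5%) and 48.5% in control (47.04% to 49.9%). The size of the share depends on whether length is corrected for, and it was smaller after XPR1 siRNA in both units. The direction of the family's sum turned with the unit, since reads weight the longer EIF4EBP2 (7257 exon bases) more than EIF4EBP1 (1073). The recovered reads are also not scaled to the size of the library. The genes summed to 351.0 TPM after XPR1 siRNA and 593.6 TPM in control, but to 5156 recovered reads after XPR1 siRNA and 4787 in control. Set over EIF4E, the cap-binding protein they block, the sum gave a ratio of 19.4 after XPR1 siRNA and 39.55 in control in TPM. In reads that ratio was 4.996 after XPR1 siRNA and 5.37 in control, so its difference rests on the correction for length. These are transcripts, and neither protein nor phosphorylation was measured.

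Cap-binding transcripts were all somewhat above control, none of them past 1.5-fold on the log2(TPM + 1) scale. EIF4E was 18.1 TPM after XPR1 siRNA and 15.0 TPM in control (ratio 1.20, 1.10 to 1.32). EIF4E2, a cap-binding protein that takes part in repression with GIGYF2, was 46.6 TPM after XPR1 siRNA and 33.7 TPM in control (1.38, 1.27 to 1.499). EIF4E3 was 4.42 TPM after XPR1 siRNA and 2.785 TPM in control (1.59, 1.26 to 1.99), and it passed 1.5-fold with a pseudocount of 0.1. Their shares of the summed TPM stayed near those of control, with EIF4E at 26.2% after XPR1 siRNA and 29.1% in control. EIF4ENIF1, the transporter that carries eIF4E into the nucleus, was 24.3 TPM after XPR1 siRNA and 18.8 TPM in control (1.295, 1.145 to 1.46). EIF4E1B, known from oocytes, was listed at 0 in both libraries.

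**Figure D3:**
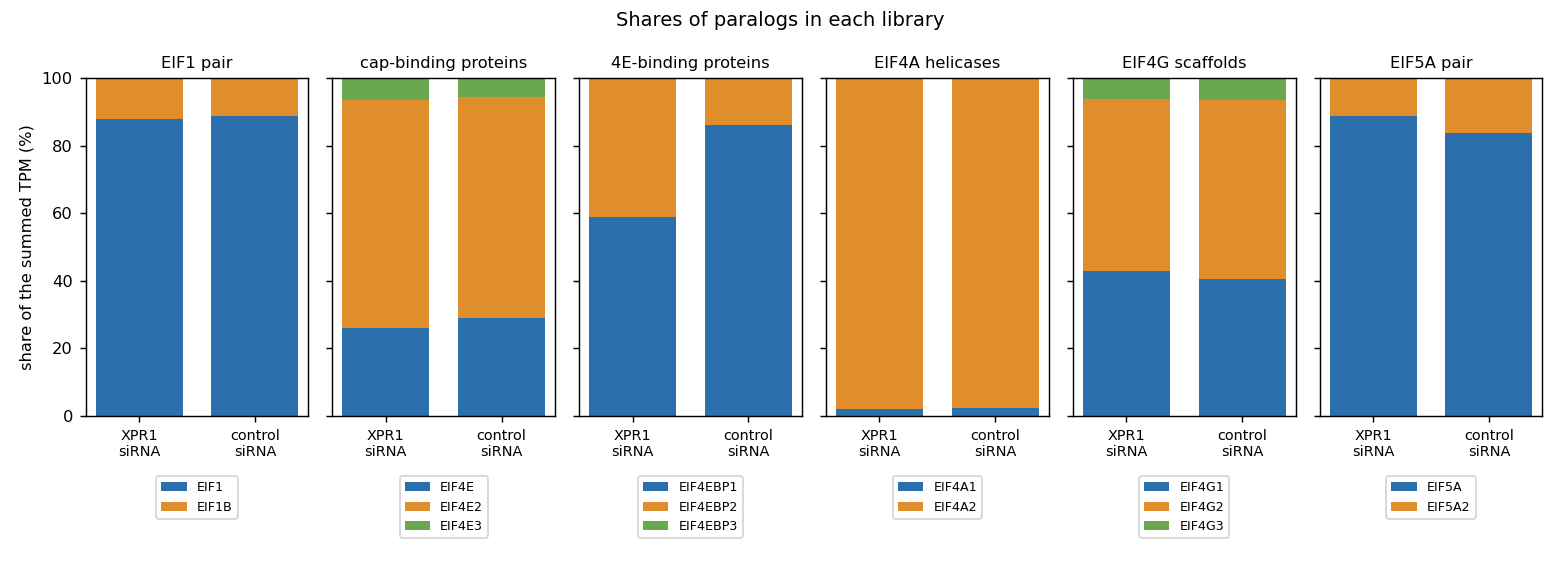
Share (%) of each paralog in the summed TPM of its family, with XPR1 siRNA at the left and control siRNA at the right of each panel. In the 4E-binding protein panel EIF4EBP1 takes 58.85% after XPR1 siRNA and 86.3% in control, while the shares within the EIF1 pair and the EIF4G scaffolds differ by under 3 percentage points.

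The scaffolds were close to control. EIF4G1, which joins the cap-binding protein to the helicase and to eIF3, was 423.5 TPM after XPR1 siRNA and 396.6 TPM in control (ratio 1.07, 1.04 to 1.09). EIF4G2, a scaffold that lacks the eIF4E site, was 501.5 TPM after XPR1 siRNA and 520.8 TPM in control (0.963, 0.943 to 0.983). EIF4G3 was 61.55 TPM after XPR1 siRNA and 61.3 TPM in control. Of the helicase cofactors, EIF4B was 539.2 TPM after XPR1 siRNA and 536.5 TPM in control, and EIF4H 421.2 TPM after XPR1 siRNA and 426.1 TPM in control. The interval of both ratios includes 1 with the deposited scaling, where their log2 differences were 0.007 and -0.017. With median-of-ratios scaling these were -0.048 and -0.072, a shift larger than their counting error. The helicases themselves, which unwind the leader, were lower after XPR1 siRNA. EIF4A2 was 173.4 TPM after XPR1 siRNA and 271.0 TPM in control, 1.56-fold lower (1.505 to 1.62). EIF4A1 was listed at 3.52 TPM after XPR1 siRNA and 6.28 TPM in control, 1.785-fold lower (1.34 to 2.39), and lay within 1.5-fold with a pseudocount of 5.

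The level of EIF4A1 is uncertain. Of its exon bases, 48.6% lie in exons of other genes on the same strand, among them the readthrough gene SENP3-EIF4A1, and how the authors counted reads shared between genes is not given in the sources used here. SENP3-EIF4A1 was listed at 0 TPM after XPR1 siRNA and 0.202 TPM in control. EIF4A1 rests on 76 recovered reads after XPR1 siRNA and 141 in control, so its share of the helicase pair, 1.99% after XPR1 siRNA and 2.27% in control, is uncertain. EIF4A2 shares 17.9% of its exon bases, in part with snoRNA genes and with genes on the other strand. EIF4A3, which works in the exon junction complex rather than at the cap, was 45.6 TPM after XPR1 siRNA and 43.99 TPM in control (1.04, 0.9445 to 1.14).

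**Figure D4:**
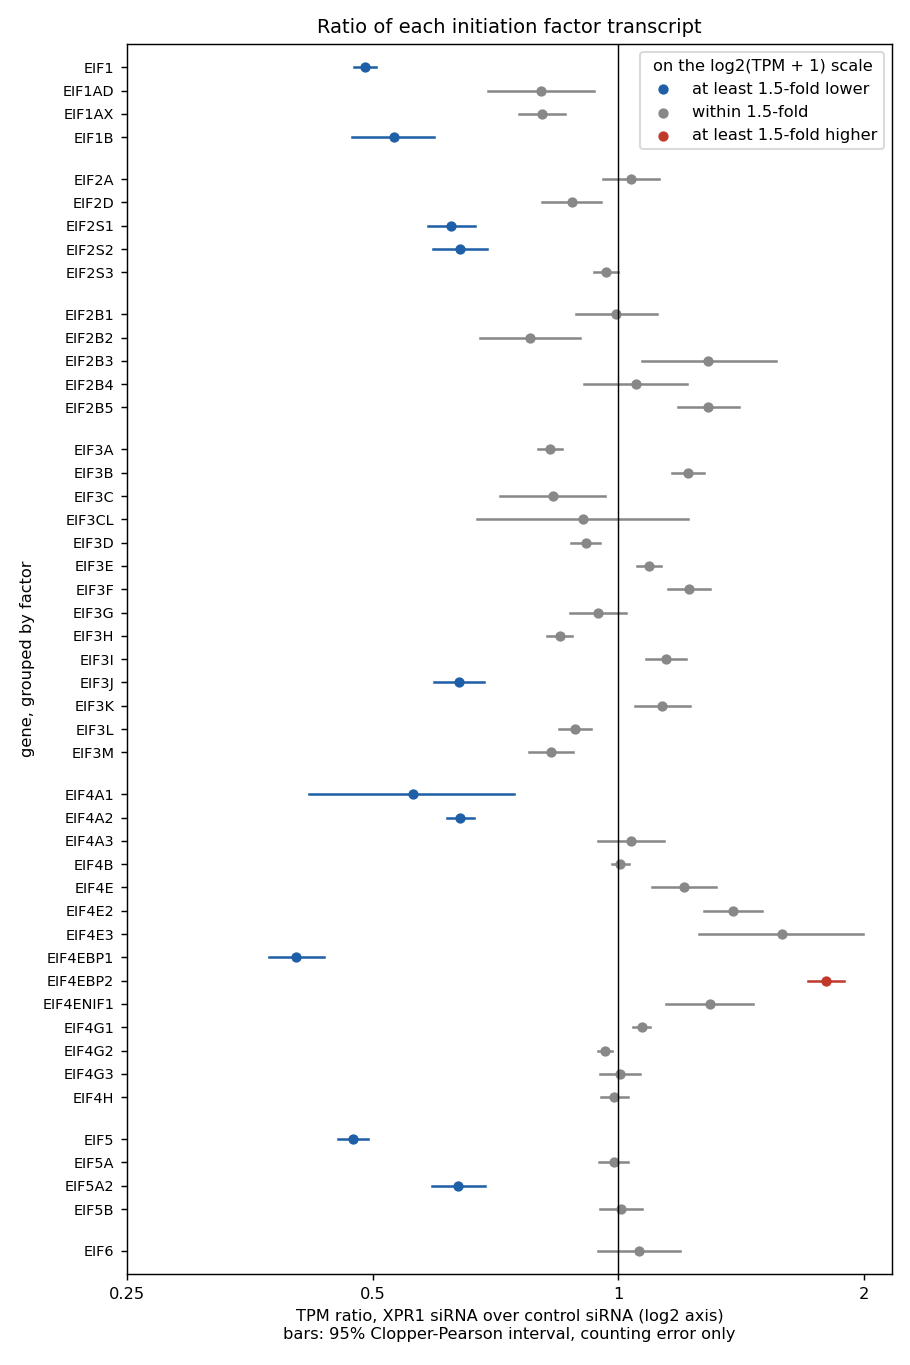
Ratio of TPM, XPR1 siRNA over control siRNA (log2 axis), for the 47 genes with 95% Clopper-Pearson intervals from recovered reads; blue is at least 1.5-fold lower, red at least 1.5-fold higher on the log2(TPM + 1) scale. The blue genes sit between 0.403 (EIF4EBP1) and 0.640 (EIF4A2), the red gene EIF4EBP2 at 1.795, and the wide bar of EIF4A1 shows its few reads.

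Of EIF5A, EIF5A2, EIF5B and EIF6, which act late in initiation or after it, only EIF5A2 was lower. EIF5B, the GTPase that joins the large subunit, was 69.3 TPM after XPR1 siRNA and 68.85 TPM in control (ratio 1.01, 0.949 to 1.07). EIF6, which keeps the large subunit from joining too early, was 91.2 TPM after XPR1 siRNA and 86.2 TPM in control (1.06, 0.944 to 1.19). Both were level with control within counting error. EIF5A, which is now known for its role in elongation past difficult peptide bonds, was 394.9 TPM after XPR1 siRNA and 400.2 TPM in control (ratio 0.987, 0.947 to 1.03). Its paralog EIF5A2 was 49.5 TPM after XPR1 siRNA and 77.75 TPM in control, 1.57-fold lower (1.46 to 1.69). EIF5A2 made up 11.1% of the pair's summed TPM after XPR1 siRNA and 16.3% in control. The processed pseudogene EIF5AP4 was listed at 90.05 TPM after XPR1 siRNA and 102.4 TPM in control, and since processed pseudogenes can copy their parent, reads may be shared. EIF5AL1 and EIF2S3B, copies of EIF5A and EIF2S3, were listed below 1 TPM, with at most 10 recovered reads in either library.

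Other genes of translation, outside the naming rule, were set beside these. Of 9 eIF2 kinases and phosphatase subunits, 1 was higher (11.1%) and 2 were lower (22.2%), with a median log2 difference of 0.37, beside 20.7% higher and 11.1% lower among protein-coding genes. EIF2AK4, the kinase that senses uncharged tRNA, was 59.7 TPM after XPR1 siRNA and 36.1 TPM in control, and the other kinases were within 1.5-fold, at ratios between 1.127 and 1.385. The 2 lower genes encode the subunits that direct phosphatase 1 to eIF2. PPP1R15B, the constitutive one, was 109.3 TPM after XPR1 siRNA and 225.1 TPM in control, 2.06-fold lower (1.96 to 2.165). PPP1R15A, the stress-induced one, was 28.4 TPM after XPR1 siRNA and 235.3 TPM in control, 8.30-fold lower (7.44 to 9.29). The catalytic subunits PPP1CA, PPP1CB and PPP1CC had ratios between 1.02 and 1.455.

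Of 24 initiation partners, 3 were higher (12.5%) and 2 lower (8.33%), with a median log2 difference of 0.01. Both shares were below those of protein-coding genes. PDCD4, an inhibitor of eIF4A, was 73.9 TPM after XPR1 siRNA and 39.9 TPM in control, 1.85-fold higher (1.69 to 2.025). DHX29, a helicase of scanning, was 35.4 TPM after XPR1 siRNA and 22.4 TPM in control, and PAIP2B, an inhibitor of poly(A)-binding protein, was 1.72 TPM after XPR1 siRNA (44 reads) and 0.451 TPM in control (12 reads). MTOR, the kinase of the complex that phosphorylates the 4E-binding proteins, was 21.85 TPM after XPR1 siRNA and 41.4 TPM in control, 1.89-fold lower (1.76 to 2.04). MKNK2, a kinase of eIF4E, was 108.9 TPM after XPR1 siRNA and 173.7 TPM in control. Of 14 genes of elongation and termination, 12 were over the floor, 2 of them higher (16.7%, beside 20.7% of protein-coding genes) and 0 lower, and their median log2 difference was -0.14. Of the higher genes, EEF1A2 was 121.3 TPM after XPR1 siRNA and 65.8 TPM in control. The other, DHPS, which modifies eIF5A, was 2.06 TPM after XPR1 siRNA (25 reads) and 1.03 TPM in control (13 reads). The interval of its ratio, 0.985 to 4.255, includes 1. EEF1G and GSPT2 were listed at 0 in both libraries. EEF1G encodes a subunit used by every cell, so a 0 in this table does not bound a gene's level. The reason for the 0 of EEF1G was not tested.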

How the data were processed

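Total RNA of TPC-1 cells was sequenced, 1 library per siRNA. The labels' protocols name the TruSeq v2 kit, which does not mark strand. FastQC, MultiQC, Trimmomatic 0.38, featureCounts 2.0.0 and GRCh38 appear in the submitters' processing notes. The sources used here give no aligner or annotation release. The values the authors deposited are TPM and sum to 1000000 per library.

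The members and lists were chosen with earlier results of these data known. Gene types, positions and exon lengths came from GENCODE 29, and promoters from RefSeq (GRCh38.p14). TPM times exon length, divided by 246.3 (XPR1 siRNA) or 237.0 (control), gave reads. Among genes with at most 10 reads, 92.4% (XPR1 siRNA) and 92.2% (control) came within 0.01 of a whole number. Of the 47 genes compared, 20 were whole in both libraries, so the other intervals are approximate. Named are all members, with intervals for those at least 1.5-fold apart and for core subunits, and other translation genes that far apart. Scaling, pseudocount, floor, fold and read recovery were varied. The calculation was tested on simulated data (Python 3.11.15, pandas 2.3.3, scipy 1.17.1).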

Additional observations from a re-analysis of the deposited data

How the results depend on the processing

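No paired analysis was possible because there is a single library per siRNA, which also means that none could be left out. The 11 called genes kept their direction in all 56 alternative values (other scalings and pseudocounts, and recovered reads for EIF1 only). Of these values, 55 stayed past the threshold, and the exception was EIF4A1 with a pseudocount of 5. The other scalings shifted the XPR1-siRNA library by only -0.056, -0.046 and -0.001 on the log2 scale. They could therefore not undo a lower call and were too small to undo that of EIF4EBP2. Over all genes compared, 14 of 255 alternative values differed from the reported one by more than its counting error, all under another scaling. The count of higher genes was 2 with a pseudocount of 0.1, which adds EIF4E3, and 0 at 2-fold or among the 20 genes with whole recovered reads. The count of lower genes was 3 at 2-fold and 1 among those 20, where fewer genes were compared. The median over the 47 genes was -0.107 with median-of-ratios scaling, and 0.009 over the 20 genes with whole reads. The median of the EIF5 group (EIF5, EIF5A, EIF5A2 and EIF5B) was -0.33, and -0.036 with no floor, which adds EIF5AL1. In an alternative added after seeing the data, the summed 4E-binding proteins, 0.591 of control in TPM, were 1.077 times control in recovered reads, which weight the longer EIF4EBP2 more. EIF4A1 had the fewest recovered reads among the called genes, 76 after XPR1 siRNA and 141 in control. Whether this comes from its level or from reads shared with other genes was not tested.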

Other observations

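Beside the protein-coding genes, GENCODE 29 lists 81 pseudogenes with EIF symbols in the table. Of these, 28 were above 0 in at least 1 library and 8 had a mean of at least 1 TPM. They summed to 121.2 TPM after XPR1 siRNA and 131.2 TPM in control, most of it from EIF5AP4.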
